A study of Drosophila melanogaster with 3 samples.

Results

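The genes described here are 10 genes of the Decapentaplegic (Dpp) and JAK/STAT signalling pathways of Drosophila melanogaster, chosen by name among 13968 protein-coding genes. The 6 Dpp genes were dpp, tkv, put, Mad, Med and brk, and the 4 JAK/STAT genes were dome, hop, Stat92E and Socs36E. All 10 matched the annotation by symbol. Chromatin immunoprecipitation and sequencing (ChIP-seq) was done with an anti-GFP antibody on whole white prepupae of pooled sex from a transgenic line in which topi carries a C-terminal eGFP. The tagged protein Topi (matotopetli) has zinc fingers and belongs to the meiotic arrest complex of the testis, and white prepupae are animals at the onset of metamorphosis. All 3 libraries belong to 1 group and are numbered as replicates 1 to 3, with no second condition and no library of untagged animals, so binding by Topi and signal that would arise without it cannot be told apart. The labels give biological replicate numbers but do not say whether separate collections or pools of animals were used, so spreads between them may be technical.

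In the Dpp pathway, the secreted ligand Dpp, a bone morphogenetic protein, brings together the type I receptor Thickveins (tkv) and the type II receptor Punt (put), which phosphorylate the Smad protein Mad. Mad enters the nucleus with its partner Medea (Med), and with the zinc-finger protein Schnurri the complex shuts off brinker (brk), the repressor of many Dpp target genes. In the JAK/STAT pathway, Unpaired ligands bind the receptor Domeless (dome), the kinase Hopscotch (hop) phosphorylates Stat92E, and Stat92E turns on target genes that include its own feedback inhibitor Socs36E. Both pathways are known for their work in growing imaginal discs and in the stem cell niche of the testis.

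The files were peak lists. The authors' relaxed lists hold 30000 peaks for every replicate and 30000 for the pooled reads, and they derived a set of 8424 peaks that passed an irreproducible discovery rate (IDR) threshold, all on the dm6 build. Each peak has a summit and a signal value, the authors' enrichment over a control, which is not scaled between libraries. The median signal was 11 in the list of replicate 1, 22.3 in that of replicate 2 and 22.5 in that of replicate 3. Read counts were not used here and the depth is unknown, so a missing peak means only that none reached the list. In whole animals, more cells with a peak and more signal per cell cannot be told apart. The locus of a gene was taken as the gene plus 10000 bp on both sides of each of its own transcription start sites (TSSs).

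The 10 loci held 44 IDR summits, and 33 (75.0%) lay only in introns of protein-coding genes, their own or a neighbour's, against 50.9% of all IDR summits. A TSS, of whatever gene, lay within 500 bp of 11 of the 44, against 39.3% of all IDR summits. Of the 44 summits, 24 (54.5%) lay in an intron of the pathway gene itself, 2 in its untranslated exons, 1 in a coding exon and 17 outside the gene. Without tkv, which held 11 of the intronic summits, 13 of 33 (39.4%) lay in an own intron. These own-intron shares leave out introns of neighbours, so they cannot be set against the 50.9%, which counts introns of any protein-coding gene. An own promoter was occupied in 4 of the 10 genes (40.0%), since tkv, put, dome and Stat92E had an IDR summit within 500 bp of an own TSS, against 24.3% of all protein-coding genes. An IDR summit lay inside 7 of the 10 genes, against 16.3% of all protein-coding genes. The pathway genes were long, with a median of 10523 bp against 2164 bp over all protein-coding genes, and among genes of 10000 bp or more the share with a summit inside was 55.4%. All 5 pathway genes of that length (dpp, tkv, Mad, Stat92E and Socs36E) had a summit inside.

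Within the wider locus, 9 of the 10 genes had an IDR summit, against 67.4% of all protein-coding genes, and hop had none. At least 3 IDR summits lay in 7 of the 10 loci, against 28.6% of all protein-coding genes. The median locus held 3.50 IDR summits, or 1.31 per 10 kb, against 1.00 summit and 0.50 per 10 kb over all protein-coding genes. The promoter count was 2 when support was asked only of replicates 1 and 3 (without replicate 2) or only of replicates 1 and 2 (without replicate 3), and 0 among the strongest 4212 IDR peaks.

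**Figure D1:**
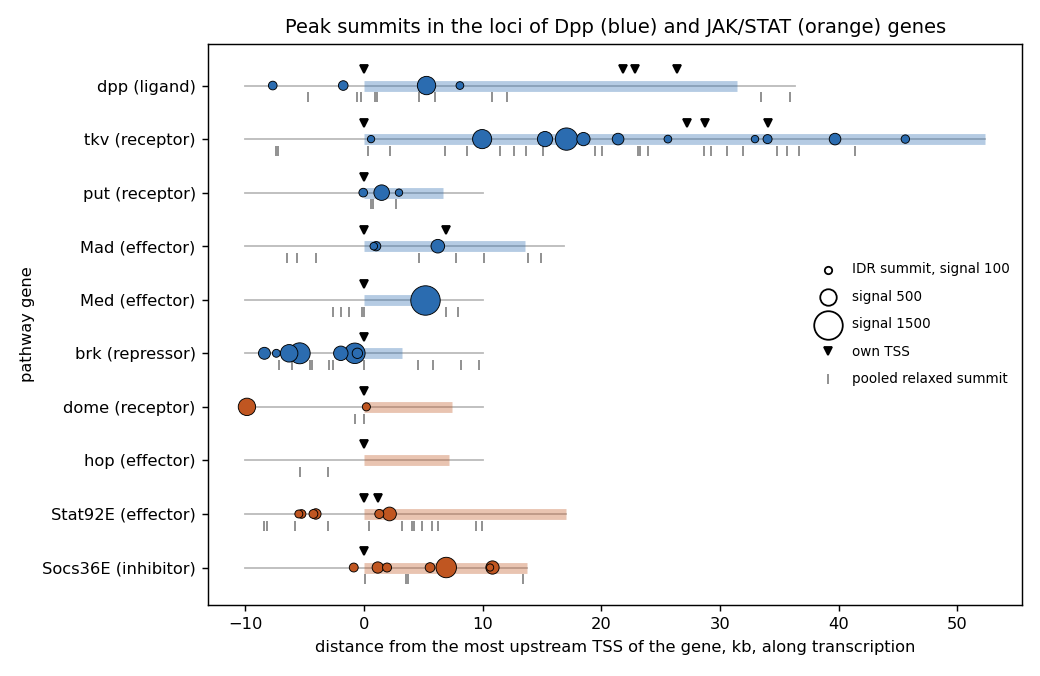
Position of summits in the 10 loci, in kb from the most upstream TSS along the direction of transcription. Thick bars are genes, thin lines loci, triangles own TSSs, circles IDR summits with area in proportion to pooled signal, and ticks the other pooled relaxed summits. The 11 IDR summits of tkv spread along the gene, the 7 of brk lie upstream of it, and hop has none.

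The ligand gene dpp (FBgn0000490, 2L, 2428372 to 2459823, plus strand) had 4 IDR summits, 2 in its introns and 2 upstream. The strongest lay 5270 bp downstream of the first TSS in an intron, with a pooled signal of 620. Replicates 1, 2 and 3 gave it signals of 166, 181 and 272, which put it at ranks 564, 945 and 629 of each list. It was thus among the strongest few percent of peaks in all 3 replicates, although dpp promoters held no IDR summit. The second intronic summit, at 8084 bp, had a pooled signal of 110 and ranked 14753 in replicate 2, below the 8424 strongest peaks there. Of the upstream summits, the one at -7692 bp lay 150 bp from the TSS of the neighbour CG9886 and the one at -1750 bp lay closer to lncRNA:CR44912.

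Among the receptor genes, tkv (FBgn0003716, 2L, 5219000 to 5271384, minus strand), which encodes the type I Dpp receptor, held 11 IDR summits, more than any other of the 10 loci. All 11 lay in its introns, over a stretch of 45038 bp, and 0.737% of protein-coding genes had as many in their locus. The locus is long, and its density of 1.76 per 10 kb was reached by 14.0% of protein-coding genes. The strongest had a pooled signal of 914 and signals of 195, 365 and 348 in replicates 1, 2 and 3, at ranks 411, 213 and 373. It was high in every replicate, and 6 of the 11 summits were among the strongest 8424 peaks of all 3. A much weaker summit, with a pooled signal of 150, lay 4 bp from an internal tkv TSS. That promoter summit ranked 2910 in replicate 2 and 5993 in replicate 3 and was not listed in replicate 1. Of the 11 summits, 6 lay closest to a tkv TSS, 4 closest to lncRNA:CR44744 and 1 closest to TpnC25D.

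The type II receptor gene put (FBgn0003169, 3R, 14619030 to 14625703, minus strand) had 3 IDR summits. The strongest lay in an intron 1488 bp downstream of the TSS, with signals of 85.6, 174 and 193 in replicates 1, 2 and 3. The promoter summit lay 65 bp upstream of the put TSS and 13 bp from that of the divergent neighbour His4r, which encodes histone H4, so the gene it belongs to cannot be told apart. Its pooled signal was 138, and it was among the strongest 8424 peaks of all 3 replicates.

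The locus of dome (FBgn0043903, X, 19676061 to 19683518, minus strand), which encodes the JAK/STAT receptor, had 2 IDR summits. One lay in the first untranslated exon of dome, 200 bp downstream of the TSS, with a pooled signal of 120. It ranked 9694, 3067 and 9853 in replicates 1, 2 and 3, so replicate 2 was the only library in which it was among the 8424 strongest. The stronger, with a pooled signal of 555, lay 9867 bp upstream of dome and 115 bp from the TSS of Mer, the gene of the tumour suppressor Merlin. It ranked 1148, 879 and 789 in the replicates and was thus the more reproducible of the pair, at the promoter of the neighbour.

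Among the effector genes, Mad (FBgn0011648, 2L, 3146056 to 3159643, minus strand) had 3 IDR summits, all in its introns and all closest to a Mad TSS. The strongest, 668 bp upstream of the second TSS, had a pooled signal of 340 and signals of 94.4, 118 and 128 in replicates 1, 2 and 3. The other 2, at 825 and 1025 bp, came from overlapping peaks and matched the same replicate peak in replicates 2 and 3.

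Med (FBgn0288966, 3R, 31611046 to 31615375, plus strand), which encodes the common partner Smad, had no IDR summit inside the gene or within 500 bp of its TSS. The 1 IDR summit in its locus was the strongest of all 44, with a pooled signal of 1594 and rank 81 of the IDR set. Its signal was 459, 480 and 659 in replicates 1, 2 and 3, at ranks 58, 102 and 81. It lay 5125 bp from the Med TSS, beyond the end of the gene, and 11 bp from the TSS of Mnat9, so the strongest peak assigned to Med by position sits at the promoter of another gene. Replicate 1 listed no other peak in the Med locus, whereas replicates 2 and 3 listed 7 and 11 in all.

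Stat92E (FBgn0016917, 3R, 20535323 to 20552311, minus strand), the transcription factor of the JAK/STAT pathway, had 6 IDR summits in its locus, 2 of them in the gene. The first, with a pooled signal of 346, lay in an intron 946 bp from a TSS, with signals of 92.9, 149 and 119 in replicates 1, 2 and 3. The second lay in an untranslated exon 86 bp from a TSS, with a pooled signal of 150, and was among the strongest 8424 peaks of all 3 replicates. Both were thus found in every replicate. The remaining 4 lay upstream in overlapping peaks, closest to the neighbours DPCoAC and CG5180.

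The kinase gene hop (FBgn0004864, X, 11360930 to 11368098, minus strand) was the only one of the 10 without an IDR summit in its locus, and no summit of any of the 5 lists lay inside it. The closest IDR summit was 11207 bp away. The pooled relaxed list had 2 summits in its locus, both in the neighbour dlg1. The sole summit within 500 bp of the hop TSS was in replicate 3, at 133 bp, with a signal of 27.4 and rank 12613 of 30000. Replicates 1 and 2 listed no peak there.

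The repressor gene brk (FBgn0024250, X, 7307939 to 7311132, plus strand) had the densest locus of the 10, with 7 IDR summits or 3.50 per 10 kb, a density that 1.36% of protein-coding genes reached. All 7 lay upstream of the gene, from -558 to -8394 bp, within introns of CG1677 and lncRNA:CR44357, and 6 of them had the brk TSS as the nearest. The 2 strongest had pooled signals of 807, at -5419 bp, and 773, at -772 bp. The summit at -5419 bp had signals of 225, 278 and 313 in replicates 1, 2 and 3, and the one at -772 bp had 234, 211 and 321. These 2 summits were within the strongest 1000 peaks of every replicate. The summits at -772 and -558 bp are 2 summits of 1 peak interval. The one at -558 bp had a pooled signal of 197 and matched the same replicate peaks as the one at -772 bp. Counting it through that interval, 6 of the 7 summits were among the strongest 8424 of all 3. The brk TSS itself had a pooled relaxed summit at 32 bp, but with a signal of 63.4 and rank 11947 it was not in the IDR set.

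The feedback inhibitor gene Socs36E (FBgn0041184, 2L, 18138675 to 18152417, minus strand) had 7 IDR summits, at 2.95 per 10 kb the second densest of the 10 loci, a density that 3.11% of protein-coding genes reached. Of the 7, 5 lay in its introns, 1 in a coding exon and 1 upstream, at -864 bp, where the TSS of CG17681 was closer. Only 2 of the 7 had the Socs36E TSS as the nearest, and the others inside the gene lay closer to lncRNA:CR44478 or kel. The strongest, with a pooled signal of 768, lay in an intron 6932 bp downstream of the Socs36E TSS. It was within an exon of lncRNA:CR44478, 387 bp from the TSS of that RNA. Its signals were 199, 250 and 312 in replicates 1, 2 and 3, at ranks 388, 525 and 490. The upstream summit ranked 4018 and 4908 in replicates 2 and 3 but 29361 in replicate 1. The summits at 10629 and 10830 bp came from overlapping peaks and matched the same replicate peak in each replicate.

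The sequence under the strongest IDR summit is shown for the 5 loci with the highest peak levels, to let the regulatory DNA be read beside the values. Each is from the plus strand of the RefSeq Release 6 genome (dm6), the summit with 100 bases on each side, except at Med, where it was cut to 111 bases so that no untranslated region is included. The regions are chr2L:2433542-2433742 for dpp, chr2L:5254214-5254414 for tkv, chr3R:31616161-31616271 for Med, chrX:7302420-7302620 for brk and chr2L:18145385-18145585 for Socs36E. Capitals mark matches, on either strand, to the motifs TGTCA (Achi/Vis type), AGGTCA (nuclear receptor core site), GATAA (GATA factors) and CAGAC (Smad core site).
dpp: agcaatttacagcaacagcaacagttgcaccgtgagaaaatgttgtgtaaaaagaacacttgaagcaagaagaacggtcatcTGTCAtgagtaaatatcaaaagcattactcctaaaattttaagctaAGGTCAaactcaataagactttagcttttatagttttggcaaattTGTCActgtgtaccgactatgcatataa
tkv: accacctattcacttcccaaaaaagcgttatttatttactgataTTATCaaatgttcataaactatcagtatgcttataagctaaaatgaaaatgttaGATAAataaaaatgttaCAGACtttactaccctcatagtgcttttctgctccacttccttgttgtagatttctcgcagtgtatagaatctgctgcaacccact
Med: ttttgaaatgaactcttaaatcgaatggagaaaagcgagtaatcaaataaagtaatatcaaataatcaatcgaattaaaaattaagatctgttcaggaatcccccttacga
brk: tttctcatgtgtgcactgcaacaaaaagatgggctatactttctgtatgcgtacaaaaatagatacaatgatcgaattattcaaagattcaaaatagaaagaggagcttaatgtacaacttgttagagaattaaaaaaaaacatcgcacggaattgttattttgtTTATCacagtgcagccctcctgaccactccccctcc
Socs36E: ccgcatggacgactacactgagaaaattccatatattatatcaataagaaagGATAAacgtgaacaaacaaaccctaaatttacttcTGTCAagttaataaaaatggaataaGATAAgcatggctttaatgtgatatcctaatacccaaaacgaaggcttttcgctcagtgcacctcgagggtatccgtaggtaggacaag
The tkv region holds 2 GATA matches and 1 Smad core site, the Socs36E region 2 GATA matches and 1 Achi/Vis type match, and the brk region 1 GATA match. The dpp region holds 2 Achi/Vis type matches and 1 nuclear receptor core site, and the Med region, at the Mnat9 promoter, holds no match to any motif searched. A match is a description of the letters and not a site of binding.

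The levels of the strongest peak in each locus were compared as log2(signal / median signal of the same list), over 3 replicates. The order was Med at 4.90 ± 0.48 (SD, n = 3), tkv at 4.05 ± 0.10, brk at 3.96 ± 0.40, Socs36E at 3.82 ± 0.35, dpp at 3.51 ± 0.46, dome at 3.29 ± 0.19, put at 3.01 ± 0.08, Stat92E at 2.74 ± 0.34, Mad at 2.67 ± 0.38 and hop at 0.94 ± 0.52. Neighbours in this order differed by more than the larger of their SDs at 3 places, between Med and tkv, between dome and put, and between Mad and hop. The genes from tkv to dome, and from put to Mad, each formed a run whose neighbours did not differ beyond their spread. These runs depended on the scale. With the rank as a percent of each list, the order of the means was the same but 4 places passed the limit. They lay between Med and tkv, Socs36E and dpp, dpp and dome, and Mad and hop. On that scale dome (3.13) and put (4.41 ± 1.30) did not differ beyond the larger SD. The peaks behind the values for Med and dome lay at Mnat9 and Mer, and those for hop lay at dlg1 or Pa1 and not in hop. The brk value came from the peak at -772 bp in replicates 1 and 3 and from that at -5419 bp in replicate 2. Over the summits listed in both libraries of a pair, Spearman's rho of the signals was 0.76 for replicates 1 and 2 (41 summits), 0.90 for replicates 1 and 3 (42) and 0.87 for replicates 2 and 3 (43), as a description over summits that share the libraries.

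**Figure D2:**
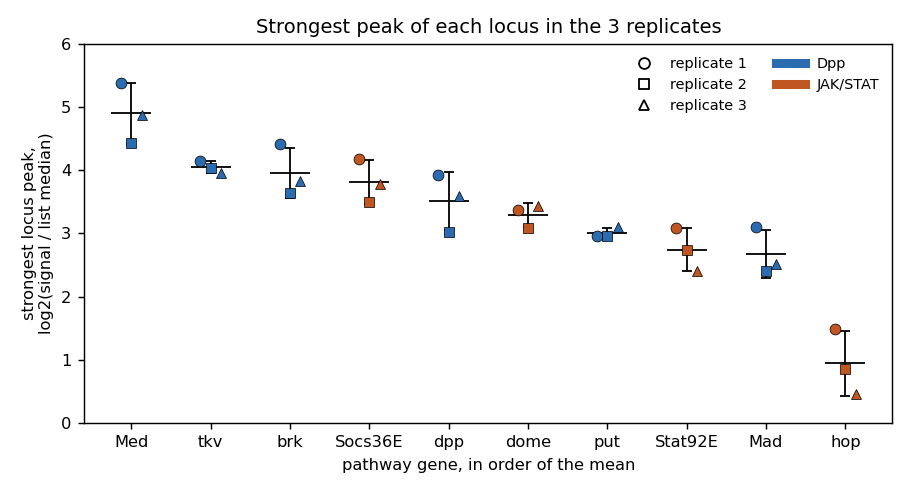
Strongest peak of each locus as log2(signal / list median), by gene in order of the mean. Points are the 3 replicates, and bars the mean and SD (n = 3). Med stands highest at a mean of 4.90, through the Mnat9 promoter peak, and hop lowest at 0.94.

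The next question was whether the loci of the 2 pathways differed in summit density, as total summits over total locus length. The 6 Dpp loci held 29 IDR summits in 195645 bp, or 1.48 per 10 kb, and the 4 JAK/STAT loci 15 in 90734 bp, or 1.65 per 10 kb. In the 8424 strongest peaks of each replicate, the Dpp loci had 1.58, 1.28 and 1.43 summits per 10 kb in replicates 1, 2 and 3. The JAK/STAT loci had 1.32, 1.65 and 1.32. Dpp was thus higher in replicates 1 and 3 and lower in replicate 2, and the ranges overlapped. The mean difference, Dpp minus JAK/STAT, was -0.00160 ± 0.333 per 10 kb (SD, n = 3; exact sign-flip permutation test over replicates, two-sided, p = 1; Benjamini-Hochberg adjusted over 3 comparisons, 1), smaller than the spread between replicates. It was 0.185 without replicate 2. The IDR difference, -0.171, turned to 0.288 without Socs36E and was -0.638 without hop, the densest and the emptiest of the JAK/STAT loci.

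The IDR summits of the pathways are described next, with no test. The median pooled signal was 248 over the 29 Dpp summits and 150 over the 15 JAK/STAT summits, against 180 over all IDR summits, and it was 230 for Dpp without tkv. An own TSS was the nearest for 19 of the 29 Dpp summits (65.5%) and for 5 of the 15 JAK/STAT summits (33.3%), and 18 (62.1%) and 6 (40.0%) lay in own introns. Without tkv, 13 of the 18 remaining Dpp summits (72.2%) had an own TSS nearest and 7 (38.9%) lay in own introns. Counting only summits whose nearest TSS was the gene's own, the density difference became 0.420 per 10 kb in favour of the Dpp loci. The share found among the strongest peaks of all 3 replicates was 69.0% for Dpp and 73.3% for JAK/STAT summits. Over the 10 loci it was 31 of 44 (70.5%), against 66.0% of all IDR peaks.

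By role, the 3 receptor loci held 16 IDR summits, or 1.56 per 10 kb, the 4 effector loci 10, or 1.07, and the single ligand locus 4, or 0.863. In the replicates' strongest peaks the receptor loci had 1.66, 1.37 and 1.37 summits per 10 kb in replicates 1, 2 and 3, and the effector loci 1.07, 0.959 and 0.959. The receptor loci were denser in each of the 3 replicates in these lists. In the whole relaxed lists the order turned in replicate 3, with 4.30 in receptor and 4.90 in effector loci, and the mean difference was 0.191 (exact sign-flip permutation test, p = 0.75). The mean difference was 0.471 ± 0.108 per 10 kb (SD, n = 3; exact sign-flip permutation test, two-sided, p = 0.25, the smallest that 3 differences can give; adjusted over 3 comparisons, 0.375). The third comparison in the adjustment is that of brk and Socs36E with the other loci, formed after the values had been seen. Most of the receptor and effector difference came with tkv, since without that gene the mean difference was 0.0891 and the IDR difference 0.185 instead of 0.498. The IDR difference was also only 0.0180 without replicate 1, 0.320 without replicate 2 and 0.133 without replicate 3.

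The 2 genes that dampen the pathways, brk and Socs36E, were set beside the other 8 after the values had been seen. Their loci held 14 IDR summits, or 3.20 per 10 kb, against 30, or 1.24, in the other 8. In replicates 1, 2 and 3 they had 2.74, 3.20 and 2.97 summits per 10 kb, and the other 8 loci 1.28, 1.07 and 1.11. The 2 sets did not overlap, but the genes were chosen for this and the difference, 1.82 ± 0.334 per 10 kb (SD, n = 3), is a description. The IDR difference of 1.96 was 1.71 without brk and 2.26 without Socs36E. It was 1.63 with overlapping peaks merged, 1.26 with a locus reach of 20000 bp and 1.17 with only summits whose nearest TSS was the gene's own.

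**Figure D3:**
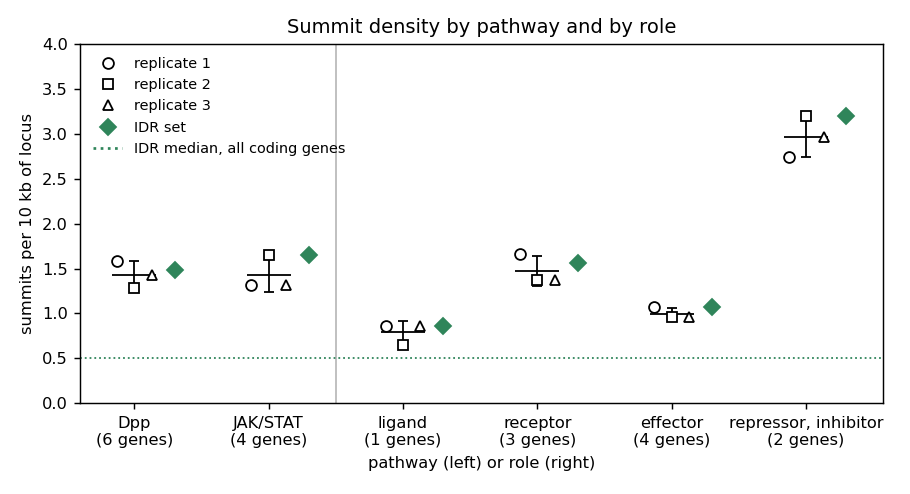
Summits per 10 kb of locus by pathway and by role. Open points are the 8424 strongest peaks of replicates 1 to 3 with mean and SD (n = 3), diamonds the IDR set, and the dotted line the IDR median over all protein-coding genes, 0.50. The Dpp and JAK/STAT values overlap, and the brk and Socs36E loci stand at 2.74 to 3.20.

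In the relaxed lists, which by their label include background regions, the loci held more summits. The pooled list had 128 summits in the 10 loci, 92 in the Dpp loci (4.70 per 10 kb) and 36 in the JAK/STAT loci (3.97). A pooled relaxed summit lay within 500 bp of an own TSS at 8 of the 10 genes, all but Mad and hop, against 42.5% of all protein-coding genes. At dpp, Med, brk and Socs36E, which had no IDR summit there, the strongest of these had signals of 68.6, 57.7, 63.4 and 76.3, all below the lowest IDR signal of 93.7. With the IDR rule, the closest summits beyond the 500 bp limit lay at 558 bp for brk, 668 bp for Mad and 864 bp for Socs36E, and the farthest within it was that of dome at 200 bp.

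Of 34 further genes of the pathways, taken from a list of known components, 12 (35.3%) had an IDR summit within 500 bp of an own TSS, against the same 24.3% of all protein-coding genes. They were 8 of 19 Dpp genes and 4 of 15 JAK/STAT genes, and the count was 6 without replicate 2, 6 without replicate 3 and 9 without replicate 1. The strongest Dpp pathway promoter summits were at shn, which encodes the Schnurri partner of Mad and Med, with a pooled signal of 711, at magu, a secreted Dpp modulator, with 710, at the glypican gene dlp with 297, and at Dad, the inhibitory Smad, with 253. At shn the signal was 400 in replicate 2 and 292 in replicate 3 but 14.8 in replicate 1, where it ranked 11182, while at magu it was 175, 225 and 313. The shn locus held 23 IDR summits, 22 of them inside the gene. The strongest JAK/STAT promoter summits, at the transcription factor gene apt, the SOCS family gene Socs16D and the zinc-finger genes chinmo and ken, had pooled signals of 270, 169, 142 and 128. An IDR summit lay in the locus of 25 of the 34 genes (73.5%, against 67.4% of all protein-coding genes), and at least 3 in 21 (61.8% against 28.6%). The 34 genes ran from 887 to 132765 bp in length, and longer genes have larger loci. None of these shares was set beside genes of like length.

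The letters under the 44 summits were compared with those under all IDR summits and under the 20304 pooled relaxed peaks that shared under 50% of either peak with every IDR peak (relaxed-only). Within 100 bp of the summit, on both strands, the STAT92E motif TTCNNNGAA was found at 2 of the 44 summits (4.55%), against 5.71% of all IDR and 5.74% of relaxed-only summits. The Mad motif GCCGNCGC was found at 1 (2.27% against 1.22% of all IDR summits), and the Brk motifs GGCGCC and GGCGCT at 2 and 3 (4.55% and 6.82% against 2.35% and 4.48%). With so few summits these shares each rest on 1 to 3 summits. The GATA motif GATAA was the commonest, at 20 of the 44 (45.5%, against 40.2% of all IDR summits). It was at 16 of the 29 Dpp summits (55.2%) and at 4 of the 15 JAK/STAT summits (26.7%), whose windows had a median GC content of 33.8% and 42.3%. The Smad core site CAGAC was at 9 (20.5% against 16.6% of all IDR and 20.5% of relaxed-only summits), TGTCA at 12 (27.3% against 27.0%), GAGAG at 10 (22.7% against 23.0%), CGATA at 8 (18.2% against 25.1%), AGGTCA at 3 (6.82% against 3.76%) and CACGTG at none (against 1.63%), where the latter share is that of all IDR summits. Some of these shares moved with the window. Of the 44 summits, 10 had a peak that overlapped another IDR peak of the locus, so in wide windows 1 match can count for 2 summits. Within 200 bp of the summit, Mad was at 5 of the 44 (11.4% against 4.05% of all IDR summits), GGCGCT at 10 (22.7% against 11.1%), STAT92E at 5 (11.4% against 10.6%), GATAA at 25 (56.8% against 59.5%) and CGATA at 13 (29.5% against 42.1%).

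**Figure D4:**
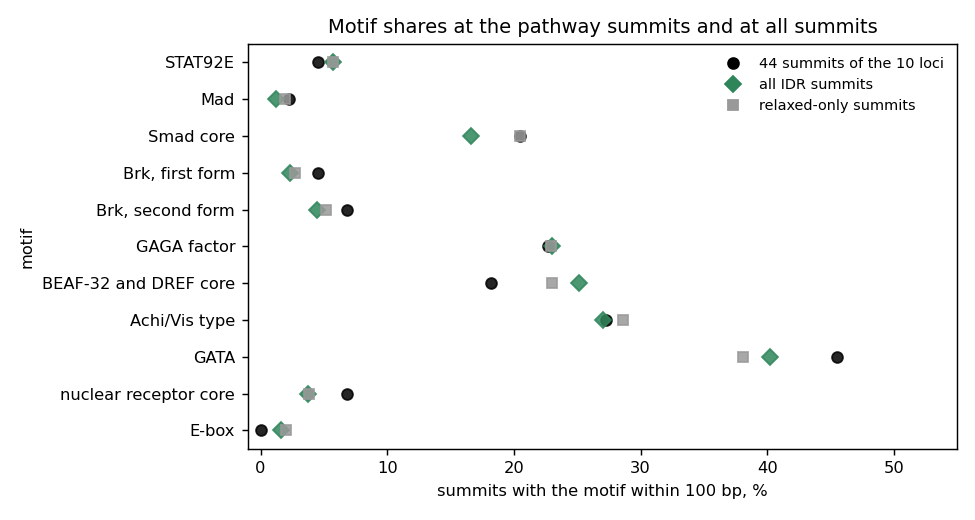
Percent of summits with each motif within 100 bp, for the 44 IDR summits of the 10 loci, all IDR summits and the relaxed-only summits. GATA is at 45.5% of the 44 summits against 40.2% of all IDR summits, and CGATA (BEAF-32 and DREF core) at 18.2% against 25.1%.

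Socs36E is a known Stat92E target, and its locus of 23743 bp held 23 matches to TTCNNNGAA. None of these lay within 100 bp of an IDR summit, and 1 lay inside an IDR peak. The share of locus positions so near a summit was not taken, so the counts here are a description. At dome, with a locus of 20001 bp, 2 of 8 matches lay within 100 bp of an IDR summit, and at tkv, with 62385 bp, 1 of 19. The motif is common, at 3.19 matches per 10 kb of the genome and in 99.8% of all protein-coding loci. The Socs36E locus was denser in matches than this genome rate, and the dome and tkv loci were nearer to it.

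The locus of brk could be read against a longer motif, the silencer element to which Mad, Medea and Schnurri bind when Dpp signalling shuts brk off. This element was added after the data were seen. The brk locus held 8 matches, whereas 6.16% of protein-coding loci held at least 1. Only 2 loci held 8 or more, those of brk and of CG1677, which overlap. The cutoff of 8 is brk's own count and the element is one known to act on brk, so this is a description. Of the 8 matches, 7 lay upstream of brk, in the same stretch as the 7 IDR summits. They are printed because their order along the region can be set beside the summits. Each is given on its own strand from the RefSeq Release 6 genome (dm6) and named by its distance in bp from the brk TSS. Capitals mark the parts that the motif matches. Some capital letters differ between the matches, so the motif does not fix every one of them. They span chrX:7299721-7305777.
brk -8211: GACGACagagtGTCTG
brk -8179: GGCGACattctGTCTG
brk -8028: GACGTCgctctGTCTG
brk -7658: GGCGCCtctatGTCTG
brk -6632: GGCGTCcgctcGTCTG
brk -5180: GGCGGCcaaatGTCTG
brk -2170: GACGACggactGTCTG
All 7 lay between 183 and 366 bp from the closest IDR summit, and none within 100 bp of one. The match at -6632 bp was the only one of the 7 inside an IDR peak. Elsewhere in the genome 26 of 364 matches (7.14%) lay within 400 bp of an IDR summit. The 400 bp limit was not set in advance and encloses the distances of all 7. The brk upstream region is dense in summits, however, and 50.2% of its positions lay within 400 bp of one, so the nearness of the 7 matches is a description of this region. The remaining match, 9527 bp downstream of the TSS, was 1798 bp from the closest IDR summit, which lay outside the locus. A pooled relaxed summit with a signal of 51.6 lay 128 bp from this match.

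**Figure D5:**
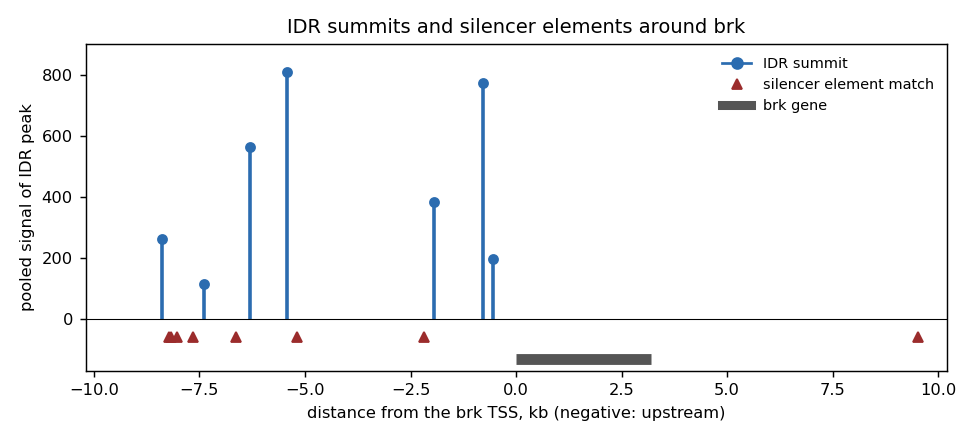
IDR summits (stems, height is the pooled signal) and silencer element matches (triangles) by distance from the brk TSS in kb, with the gene as a bar. The 7 summits and 7 of the 8 matches lie upstream, and these 7 matches lie beside the summits at distances of 183 to 366 bp.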

How the data were processed

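Anti-GFP ChIP-seq of topi-eGFP white prepupae gave 3 libraries, deposited as narrowPeak lists. Chromatin was sonicated and sized to 200 to 800 bp, per the labels. Per the deposited text files, the authors called relaxed peaks per replicate and on pooled reads against 1 control alignment and derived the IDR set. For the peak caller, its version and the IDR cutoff: not given in the sources used here. As deposited, the signal is the authors' enrichment of a peak and was used only within a list. The deposited −log10 q-value, 4.28 for every IDR peak, was printed for no result. The dm3 lists were not used. Depth per sample is unknown.

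Genes and TSSs came from Ensembl release 115, on the same assembly (dm6), and sequences from the RefSeq Release 6 genome. A summit counted as found in a replicate when its peak and a replicate peak shared 50% or more of either, among the 8424 strongest peaks of each replicate. Replicate differences were tested with an exact sign-flip permutation test. Other comparisons are descriptions, with the share over all protein-coding genes beside them. The members, lists and motifs were chosen with earlier results of these data known. All 10 genes are named, and among other pathway genes up to 4 per pathway by promoter peak signal. Neighbouring genes were named where a summit lay closer to their TSS. Alternatives varied the windows, loci, lists, overlap rules and replicates. The measures were tested on simulated data. Python 3.11.15, numpy 2.4.6, pandas 2.3.3 and matplotlib 3.10.9 were used.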

Additional observations from a re-analysis of the deposited data

How the results depend on the processing

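The counts of genes with an IDR summit inside kept within 1.5 times of 7 under every alternative run. The count at promoters, 4, was 7 with a 1000 bp window and 0 among the strongest 4212 IDR peaks, and 2 to 3 without a replicate. The count of other pathway genes, 12, was 5 among those peaks and 6 to 9 without a replicate. The 44 IDR summits became 68 with a 20000 bp reach, 27 in the genes alone, 24 with an own TSS nearest and 22 among the strongest 4212, and the 128 pooled summits became 194, 75 and 66 under the first 3 and 80 among its stronger 15000. The IDR density difference of Dpp and JAK/STAT loci, -0.171, turned to 0.420 with an own TSS nearest, 0.157 among the strongest 4212, 0.0575 with overlapping peaks merged and 0.288 without Socs36E, was -0.638 without hop, and ran from -0.308 to -0.0447 without a replicate. The replicate difference, -0.00160, turned to 0.290 in whole relaxed lists, 0.0634 with 4212 peaks per replicate and 0.436 without Socs36E, and ran from -0.133 to 0.185 without a replicate. The receptor and effector difference, 0.498, was 0.725, 0.801 and 0.916 with a reach of 5000 bp, of 20000 bp and the gene alone, 0.346 with an own TSS nearest, 0.355 among the strongest 4212, 0.817 with merged peaks, 0.185 without tkv, 0.965 without Stat92E and 0.0180 to 0.320 without a replicate. The share in all 3 replicates, 70.5%, was 100% among the strongest 4212, 77.3% with any overlap, 47.7% with 50% of both peaks, 93.2% in whole relaxed lists and 70.5% to 84.1% without a replicate. The cause of these moves was not tested. Merging, and leaving out a gene, were chosen after seeing the data. With 1 group, 3 replicates and unknown depth, no test here can pass 0.05. The replicate differences were taken within each replicate, so they are already paired.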

Other observations

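Downstream of dpp lies a long stretch without another protein-coding gene up to Slh, 28373 bp on 2L, known from genetics for enhancers of dpp in imaginal discs. It held 5 further IDR summits that the 10000 bp reach of the locus left out, at 14735, 21516, 24530, 25640 and 27226 bp past the end of dpp. Their pooled signals were 95.4, 369, 136, 219 and 442. The first 2 lay closest to the TSS of lncRNA:CR45286, at 1580 and 8361 bp, and the other 3 closest to that of Slh, at 8318, 7208 and 5622 bp, with the last 1147 bp from the Slh end of the stretch. The summit at 27226 bp ranked 1282, 1423 and 1317 in replicates 1, 2 and 3, and the one at 21516 bp ranked 2068, 1447 and 2001, so both were high in every replicate, and 3 of the 5 were among the strongest 8424 peaks of all 3. The locus as defined gave dpp the lowest summit density of any role, 0.863 per 10 kb, without these summits.

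Among 2080 6-letter words, the one with the largest difference in share between IDR and relaxed-only summits, after 8 words made of A and T alone, was ACAGTG (both strands, within 100 bp of the summit), at 17.2% of IDR and 11.2% of relaxed-only summits. It was noticed after the values were seen. At the 44 pathway summits it was found at 10 (22.7%).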
